A study of Mus musculus with 16 samples.

Results

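The neuromuscular junction organizing genes described here are Agrn, Lrp4, Musk, Dok7, Rapsn, Colq, Ache, Etv5 and Ncam1, which build or serve the synapse between motor nerve and muscle fiber and are not acetylcholine receptor subunits. They were chosen by gene symbol, and all 9 were found among the 24421 genes of the count tables. RNA was taken from gastrocnemius (Gas), a muscle dominated by fast fibers, and from soleus (Sol), which is dominated by slow fibers, of 8-week-old male C57BL/6 mice. LSD1-mKO mice carried both floxed alleles of Lsd1 (flox/flox), the gene of the histone demethylase LSD1, and the tamoxifen-inducible recombinase CreERT2 under the human ACTA1 promoter, which is active in muscle fibers. WT mice carried the floxed Lsd1 gene and no CreERT2, so the loss of LSD1 and the presence of CreERT2 cannot be told apart. All mice received tamoxifen at 75 mg per kg for 5 days and the synthetic glucocorticoid dexamethasone at 1 mg per kg for 7 days from day 4 of tamoxifen, so every comparison is among dexamethasone-treated muscles. Each muscle gave 3 libraries of WT and 5 of LSD1-mKO, which makes 16. The Gas and Sol libraries were counted in separate tables, and muscle and library series cannot be told apart.

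At the neuromuscular junction, agrin released by the motor nerve binds the receptor Lrp4 on the fiber, and Lrp4 activates the receptor kinase MuSK. Active MuSK, with its cytoplasmic adaptor Dok7, drives the scaffold protein rapsyn to cluster acetylcholine receptors opposite the nerve terminal. Acetylcholinesterase, anchored in the synaptic basal lamina by the collagen-like tail ColQ, ends each signal by hydrolysing acetylcholine. Etv5 (Erm) is an ETS transcription factor of the nuclei that lie under the synapse, and Ncam1 is an adhesion molecule kept at the junction in innervated adult fibers and spread over the fiber when the nerve is lost.

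Promoter windows were given by RefSeq for 5 of the 9 genes (Musk, Dok7, Agrn, Ache and Etv5), and Lrp4, Rapsn, Colq and Ncam1 are named only. Bases upstream of the start and outside every annotated exon are shown for the kinase, its adaptor and the ETS factor, because these windows are where synapse-specific elements of such genes have been sought. They are written 5′ to 3′ on the gene's strand (build GRCm38.p6), with E-boxes (CANNTG, bound by myogenic factors such as myogenin) in capitals.
Musk (chr4:58285712-58285959, plus strand): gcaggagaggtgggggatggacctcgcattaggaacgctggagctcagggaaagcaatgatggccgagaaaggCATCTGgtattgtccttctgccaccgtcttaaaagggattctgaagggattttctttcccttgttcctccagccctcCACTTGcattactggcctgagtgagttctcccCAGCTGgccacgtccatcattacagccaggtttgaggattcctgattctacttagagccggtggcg
Dok7 (chr5:35056516-35056765, plus strand): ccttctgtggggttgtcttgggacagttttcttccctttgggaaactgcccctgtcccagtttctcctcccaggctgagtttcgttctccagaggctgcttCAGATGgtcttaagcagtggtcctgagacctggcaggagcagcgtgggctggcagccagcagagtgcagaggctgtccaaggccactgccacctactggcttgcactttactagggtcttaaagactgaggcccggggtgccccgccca
Etv5 (chr16:22439720-22439820, minus strand): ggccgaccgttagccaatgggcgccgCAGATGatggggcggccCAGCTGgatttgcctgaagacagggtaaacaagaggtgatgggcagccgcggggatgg

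The Musk stretch held 3 E-boxes, the Dok7 stretch 1 and the Etv5 stretch 2. Over the 250 bases before each of the 8 start sites listed for the 5 genes, an E-box on either strand lay in 5 windows, 1 in each gene, and in 66.2% of all 32851 windows of that length. The N-box CCGGAA, a site for ETS factors at synaptic genes, was in none of the 8 windows and in 12% of all, and the glucocorticoid receptor half-site AGAACA was in none of the 8 and in 16.1% of all.

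Libraries held between 10130415 and 24576377 reads assigned to genes. Levels are given as CPM, the share of reads scaled by TMM over the 16 libraries, and 3 reads in a library corresponded to at most 0.296 CPM. The targeted gene, Kdm1a (Lsd1), followed the labels: it stood at 40, 37.2 and 48.2 CPM in WT Gas and at 12 to 17.7 CPM in the 5 LSD1-mKO Gas libraries, and at 33.4 to 34.9 CPM in WT Sol and 9.13 to 12.9 CPM in LSD1-mKO Sol. Muscle identity was as labelled, with a log2 fold change of WT Sol against WT Gas of 5.45 for Myh7, the slow myosin, and of -9.27 for Myh4, a fast myosin. The 84 ribosomal protein genes set 3 libraries apart: their mean log2 CPM was 8.31 in WT Gas 3, 7.57 in LSD1-mKO Gas 5 and 6.98 in WT Sol 2, whereas the other Gas libraries lay between 6.78 and 7.12 and the other Sol libraries between 6.13 and 6.55. The 7 muscle fiber markers summed to 137000 to 166000 CPM in WT Gas and 101000 to 140000 CPM in LSD1-mKO Gas, where 4 of the 5 libraries lay below every WT library, and to 84800 to 97100 CPM in WT Sol and 67900 to 103000 CPM in LSD1-mKO Sol. The part of this difference in the genotype values was not tested. The 5 motor axon markers summed to 10.7 CPM in WT Gas 3 and to 0.572 to 3.27 CPM in the other 15 libraries. In these bulk libraries fewer cells or nuclei of a type and less RNA in each of them cannot be told apart.

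Read per kilobase of the longest annotated transcript, Rapsn and Musk were the most abundant of the 9 genes in all 4 groups. In WT Gas, Rapsn stood at 21.8 ± 0.975 and Musk at 16.4 ± 10 RPKM (reads per kilobase scaled as CPM; SD, n = 3), and the library ranges of these 2 genes overlapped. Dok7 followed at 6.01 ± 4.13 and Ache at 4.83 ± 2.51 RPKM, and the remaining 5 genes lay between means of 1.07 and 1.85 RPKM, each range overlapping that of the next gene. In WT Sol, Musk led at 20.2 ± 8.17 RPKM, Rapsn stood at 16.8 ± 4.47 and Dok7 at 12 ± 0.652, with the Dok7 libraries all below those of Rapsn and all above those of Colq at 4.11 ± 0.555. The order rests on the transcript length: with the median transcript length of each gene, Ache ranked 1 in every group, its median transcript being 438 bases and its longest 3687 bases.

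**Figure D1:**
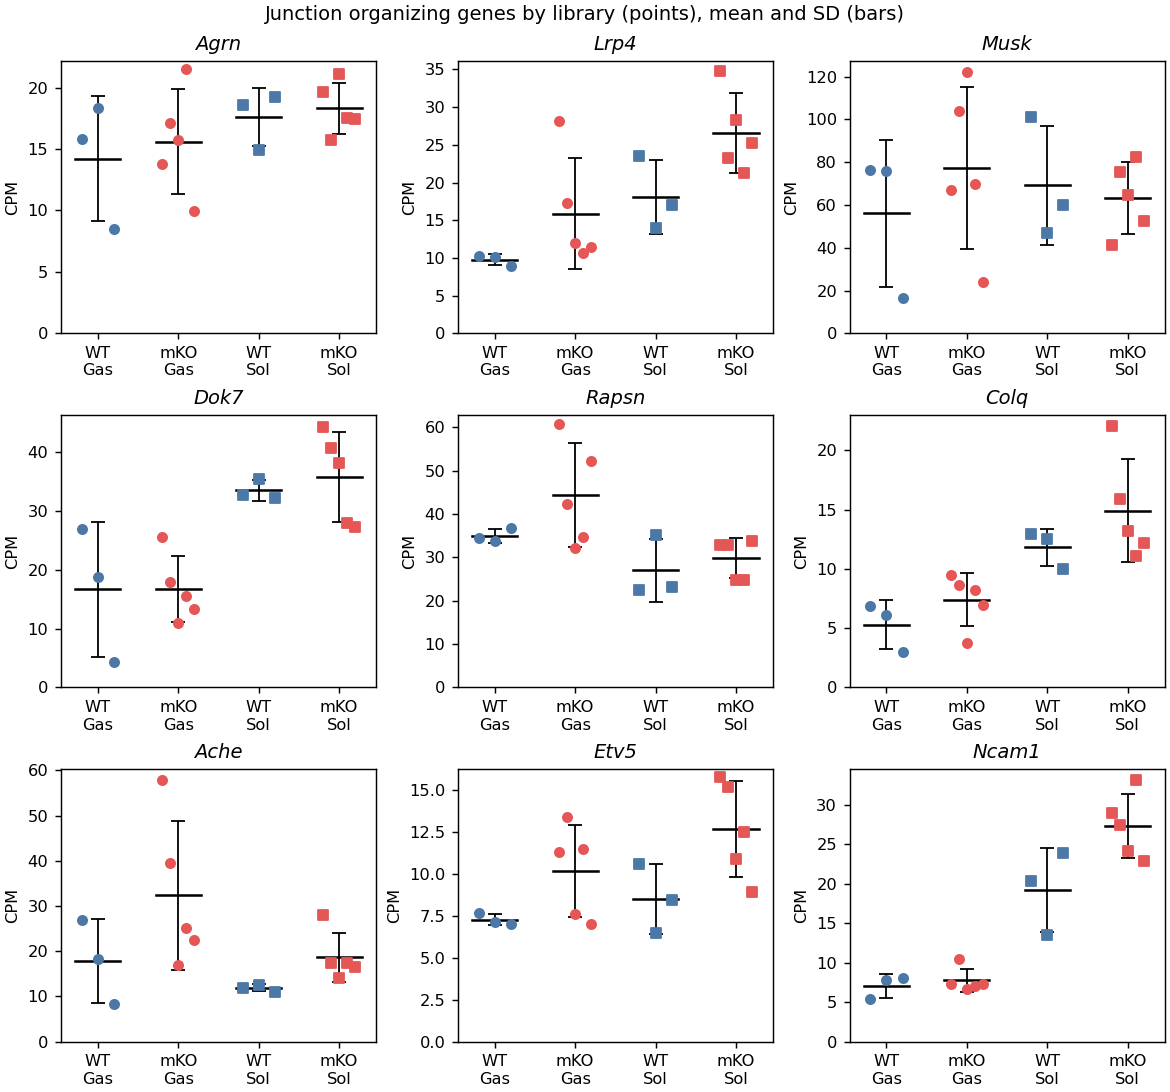
Level of each organizing gene in CPM (vertical axes start at 0) in the 16 libraries; circles are Gas, squares Sol, blue WT and red LSD1-mKO (mKO), with the group mean and SD in black. WT Gas 3 is the lowest WT Gas point for Musk (16.6 CPM), Dok7 (4.31 CPM) and Ache (8.39 CPM), and Ncam1 separates all Sol libraries (13.5 to 33.1 CPM) from all Gas libraries (5.34 to 10.4 CPM).

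The first question was whether the loss of LSD1 changed these genes within each muscle. Their levels were mostly somewhat higher in LSD1-mKO, by up to 1.81-fold for Ache and 1.64-fold for Lrp4 in Gas and by up to 1.56-fold for Ache and 1.48-fold for Etv5 in Sol, and no difference passed the test across all genes. None of the 9 genes passed an adjusted p of 0.05 between genotypes in Gas by edgeR's quasi-likelihood test, where 0.0307% of all genes tested did, and none did in Sol, where 0.967% of all genes did. At an unadjusted p under 0.05 there were 0 of 9 in Gas, against 9.06% of all genes, and 4 of 9 in Sol (Lrp4, Ache, Etv5 and Ncam1), against 15.5% of all genes. DESeq2 and edgeR's exact test also called 0 of 9 in each muscle, where they called 1.01% and 0.798% of all genes in Gas and 4.54% and 4.2% in Sol. Each of them had 1 of 9 in Gas at an unadjusted p under 0.05, against 10.8% of all genes by DESeq2 and 10.1% by the exact test, and 4 of 9 in Sol, against 16% and 15.5%. The fitted log2 difference was above 0 for 8 of 9 in Gas, all but Dok7, against 51.2% of all genes, and for 8 of 9 in Sol, all but Musk, against 48.2%. Its median was 0.46 in Gas and 0.33 in Sol over the 9 genes, and 0.01 and -0.011 over all genes. Every LSD1-mKO library lay above every WT library for 1 of 9 in Gas (Lrp4), against 4.13% of all genes. In Sol this held for 1 of 9 (Ache), against 6.33%. These shares leave out genes with every LSD1-mKO library below every WT library. The 95% interval in Gas was wider than that in Sol for each of the 9 genes and included 0 for all of them.

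**Figure D2:**
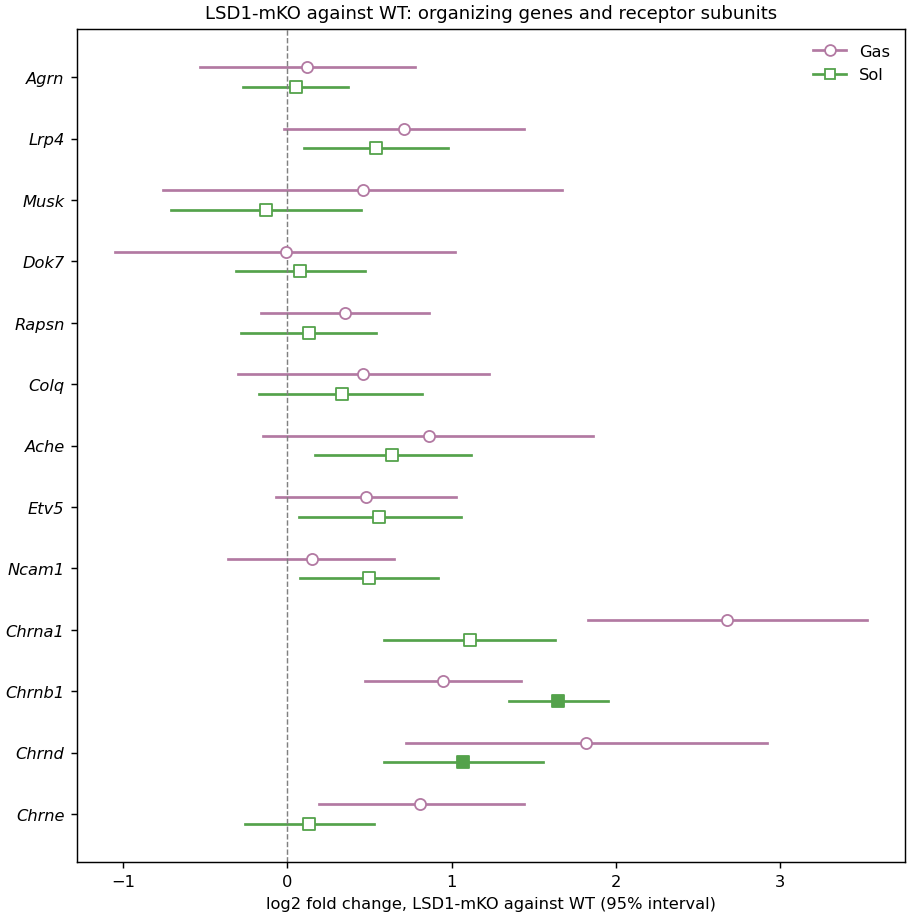
Log2 fold change of LSD1-mKO against WT with its 95% interval in Gas (circles) and Sol (squares), for the 9 organizing genes and 4 acetylcholine receptor subunits; filled symbols have an adjusted p under 0.05. The organizing genes lie between -0.13 and 0.86, whereas Chrna1 lies at 2.68 in Gas and 1.11 in Sol; Chrng, at 4.18 in Sol and not tested in Gas, is not drawn.

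Positions given for each gene are those of GENCODE M21 on GRCm38. Agrn (chromosome 4, 156165290 to 156197488), the gene of agrin, is the ligand of the pathway, of which muscle makes its own form. It stood at 15.8, 18.3 and 8.51 CPM in WT Gas and at 13.8, 17.1, 15.7, 21.5 and 9.93 CPM in LSD1-mKO Gas. In Sol it stood at 18.6, 14.9 and 19.2 CPM in WT and at 19.6, 15.7, 21.1, 17.5 and 17.4 CPM in LSD1-mKO. The genotypes overlapped in both muscles, and their difference was 0.12 ± 0.296 (log2 fold change ± SE; 95% interval -0.53 to 0.78) in Gas and 0.05 ± 0.145 (-0.27 to 0.37) in Sol. Of the 9 genes in both muscles, Agrn in Sol had the narrowest interval. The lowest Agrn levels in Gas were those of WT Gas 3 and LSD1-mKO Gas 5, the Gas libraries with the highest ribosomal protein level. With the mean of each muscle subtracted, Agrn and that level had a Pearson r of -0.85 over the 16 libraries, in each of which both values rest on the same reads and scaling. With the ribosomal level added to the fit the Gas value was -0.17, and with 1 library left out at a time it ranged from -0.12 (without WT Gas 3) to 0.37 (without WT Gas 2).

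Lrp4 (chromosome 2, 91457511 to 91513779), the agrin receptor of the fiber, was the one gene of the 9 whose Gas libraries did not overlap between genotypes. It stood at 10.3, 10.1 and 8.96 CPM in WT Gas and at 28.2, 17.3, 12, 10.7 and 11.5 CPM in LSD1-mKO Gas. Its Sol levels were 23.5, 14 and 17 CPM in WT and 34.8, 23.3, 28.3, 21.3 and 25.3 CPM in LSD1-mKO. Every LSD1-mKO Gas library lay above every WT Gas library, although LSD1-mKO Gas 4 exceeded WT Gas 1 by less than 1 CPM, and in Sol only WT Sol 1 lay within the LSD1-mKO range. The genotypes differed by 0.71 ± 0.327 on the log2 scale in Gas (95% interval -0.02 to 1.44; adjusted p = 0.555 by edgeR's quasi-likelihood test) and 0.54 ± 0.2 in Sol (0.1 to 0.98; adjusted p = 0.229). With 1 library left out at a time the Gas value ranged from 0.39, without LSD1-mKO Gas 1, the highest library, to 0.82, without LSD1-mKO Gas 4.

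Musk (chromosome 4, 58285960 to 58374303), the receptor kinase, had the widest interval of the 9 genes in Gas. It stood at 76.4, 75.7 and 16.6 CPM in WT Gas and at 66.8, 104, 122, 69.8 and 24.1 CPM in LSD1-mKO Gas. The Sol libraries held 101, 46.8 and 60.1 CPM in WT and 41.4, 75.4, 64.9, 82.5 and 52.5 CPM in LSD1-mKO. The lowest Gas libraries of both genotypes, WT Gas 3 and LSD1-mKO Gas 5, were again the Gas libraries with the highest ribosomal protein level, and over the 16 libraries Musk had the strongest correlation of the 9 genes with that level (r = -0.9 with the mean of each muscle subtracted). On the log2 scale the genotypes differed by 0.46 ± 0.549 in Gas (95% interval -0.76 to 1.67; adjusted p = 0.755) and -0.13 ± 0.264 in Sol (-0.71 to 0.45; adjusted p = 0.86). With the ribosomal level added to the fit the Gas value was -0.21. With 1 library left out at a time it ranged from 0.04 (without WT Gas 3) to 0.75 (without WT Gas 2).

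Dok7 (chromosome 5, 35056766 to 35087839), the adaptor that MuSK needs for its activity, gave 27, 18.8 and 4.31 CPM in WT Gas and 25.6, 17.9, 11, 15.6 and 13.3 CPM in LSD1-mKO Gas. In Sol it gave 32.7, 35.5 and 32.2 CPM in WT and 44.3, 40.7, 38.2, 28 and 27.3 CPM in LSD1-mKO. The LSD1-mKO libraries lay on both sides of the WT libraries in Sol and within the WT range in Gas. The log2 difference was -0.01 ± 0.467 in Gas (95% interval -1.05 to 1.02) and 0.08 ± 0.177 in Sol (-0.31 to 0.47). Without WT Gas 3 the Gas value was -0.44, and without WT Gas 1 it was 0.51, so its sign changed with the libraries used.

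Rapsn (chromosome 2, 91035620 to 91045729) encodes rapsyn, the scaffold that binds the receptors. It stood at 34.5, 33.8 and 36.8 CPM in WT Gas and at 60.8, 42.4, 32.3, 34.7 and 52.3 CPM in LSD1-mKO Gas, so that 3 of the 5 LSD1-mKO libraries exceeded all WT libraries. Sol held 22.5, 35.3 and 23.2 CPM in WT and 32.9, 32.9, 24.7, 24.9 and 33.7 CPM in LSD1-mKO. Unlike Musk, it was not low in WT Gas 3, where it reached the highest WT Gas level. LSD1-mKO differed from WT by 0.35 ± 0.23 on the log2 scale in Gas (95% interval -0.16 to 0.86; adjusted p = 0.601) and 0.13 ± 0.187 in Sol (-0.28 to 0.54; adjusted p = 0.802).

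The enzyme that removes acetylcholine gave the largest log2 differences of the 9 genes between genotypes. Ache (chromosome 5, 137287519 to 137294466) stood at 26.9, 18.2 and 8.39 CPM in WT Gas and at 57.8, 39.6, 17, 25.1 and 22.4 CPM in LSD1-mKO Gas. In Sol it stood at 11.9, 12.6 and 11 CPM in WT and at 28, 17.3, 14, 17.3 and 16.6 CPM in LSD1-mKO. Every LSD1-mKO Sol library lay above every WT Sol library, whereas in Gas the groups overlapped. The log2 difference was 0.86 ± 0.454 in Gas (95% interval -0.15 to 1.86; adjusted p = 0.557) and 0.64 ± 0.215 in Sol (0.17 to 1.12; adjusted p = 0.189). Over all alternatives to the Sol fit the adjusted p of Ache lay between 0.0981 and 0.575. With 1 library left out at a time the Gas value of Ache ranged from 0.54, without WT Gas 3 or without LSD1-mKO Gas 1, to 1.28, without WT Gas 1. Colq (chromosome 14, 31523082 to 31591343), the collagen-like tail of the enzyme, stood at 6.86, 6.09 and 2.95 CPM in WT Gas and at 9.5, 8.6, 3.77, 8.2 and 6.94 CPM in LSD1-mKO Gas. Its Sol levels were 12.9, 12.5 and 9.96 CPM in WT and 22, 15.9, 13.2, 11.1 and 12.2 CPM in LSD1-mKO. The groups overlapped in both muscles, with log2 differences of 0.46 ± 0.345 in Gas (95% interval -0.3 to 1.23) and 0.33 ± 0.224 in Sol (-0.17 to 0.82). The Colq value ranged in Gas from 0.2 (without WT Gas 3) to 0.69 (without WT Gas 1), and in Sol from 0.16 (without LSD1-mKO Sol 1) to 0.42 (without LSD1-mKO Sol 4).

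Etv5 (chromosome 16, 22381309 to 22439719), the synaptic ETS factor, stood at 7.7, 7.15 and 7.03 CPM in WT Gas and at 11.3, 13.4, 7.6, 11.5 and 7 CPM in LSD1-mKO Gas. Sol held 10.6, 6.46 and 8.45 CPM in WT and 15.8, 15.2, 10.9, 12.5 and 8.92 CPM in LSD1-mKO. In Gas 3 of the 5 LSD1-mKO libraries exceeded all WT libraries, and in Sol 4 of 5 did. LSD1-mKO differed from WT by 0.48 ± 0.248 on the log2 scale in Gas (95% interval -0.07 to 1.03; adjusted p = 0.555) and 0.56 ± 0.225 in Sol (0.07 to 1.06; adjusted p = 0.261).

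Ncam1 (chromosome 9, 49502136 to 49798925), the adhesion molecule, stood at 5.34, 7.75 and 8.05 CPM in WT Gas and at 7.34, 10.4, 6.68, 7.06 and 7.23 CPM in LSD1-mKO Gas. In Sol it stood at 20.3, 13.5 and 23.9 CPM in WT and at 28.9, 27.4, 24.1, 33.1 and 22.9 CPM in LSD1-mKO. The genotypes overlapped in both muscles, in Sol through WT Sol 3 alone. The log2 difference was 0.15 ± 0.226 in Gas (95% interval -0.36 to 0.65) and 0.5 ± 0.192 in Sol (0.08 to 0.92; adjusted p = 0.246). Ncam1 is also made by satellite cells and Schwann cells: the summed level of 6 satellite cell markers was 37.1 to 38.4 CPM in WT Sol and 45.9 to 63.2 CPM in LSD1-mKO Sol, with none of the 6 at 0. Most of that sum was Cdh15, at means of 27.5 and 43.9 CPM, whereas Pax7 had means of 2.48 and 3.4 CPM, Myf5 2.72 and 3.06, Vcam1 3.26 and 3.61 and Calcr 0.985 and 0.877. Chrdl2 had means of 0.829 CPM (0.562 to 1.23) in WT Sol and 1.58 CPM (1.27 to 1.73) in LSD1-mKO Sol, without overlap. By the quasi-likelihood test 2 of the 6 markers had an unadjusted p under 0.05 in Sol, both higher, against 15.5% of all genes. Cdh15 was called by DESeq2 and the exact test and not by the quasi-likelihood test (adjusted p = 0.0681). The part of satellite cell RNA in the Ncam1 values was not tested. Exons of Ncam1 overlap those of Gm11149 on the other strand, and reads were counted without strand, so reads of the 2 genes cannot be told apart where they overlap.

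Of the receptor subunits that these proteins cluster, Chrna1, Chrnb1 and Chrnd had larger log2 differences than any of the 9 organizing genes in both muscles. Chrna1, the acetylcholine-binding subunit, had a mean of 18.8 CPM (SD 1.61, n = 3) in the Gas of WT and of 120 CPM (SD 57.9, n = 5) in that of LSD1-mKO, a log2 difference of 2.68 ± 0.383 with an adjusted p of 0.0551 by the quasi-likelihood test, just outside the threshold. In Gas that test called none of the subunits, DESeq2 called Chrna1, Chrnb1 and Chrnd, and the exact test called Chrna1 and Chrnb1. In Sol, Chrnb1 (1.65 ± 0.137, adjusted p = 0.000564) and Chrnd (1.07 ± 0.221, adjusted p = 0.049) rose by the quasi-likelihood test. DESeq2 and the exact test called Chrna1 and Chrng there as well. Chrne, the subunit of mature junctions, had 0.13 ± 0.182 in Sol and 0.81 ± 0.282 in Gas (adjusted p = 0.471 by the quasi-likelihood test). No test of the difference between subunits and organizing genes was made, and both sets come from the same libraries.

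The effect of the genotype was then compared between Sol and Gas. None of the 9 genes passed the test of the interaction of genotype and muscle, by edgeR's quasi-likelihood test or by DESeq2, and 0% of all genes did by the former, with 671 of 13749 genes and 0 of the 9 at an unadjusted p under 0.05. DESeq2 called 0.153% of all genes, and at an unadjusted p under 0.05 it had 0 of the 9 against 5.56% of all genes. The difference of the Sol effect from the Gas effect ranged from -0.58 ± 0.656 for Musk (95% interval -1.97 to 0.8) to 0.36 ± 0.298 for Ncam1 (-0.27 to 0.99). The adjusted p was at least 0.987 for each gene. These intervals leave room for differences of 1 log2 unit between muscles in Musk, Dok7, Colq and Ache.

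The muscles themselves differed for several of the genes. In WT, 2 of 9 genes passed an adjusted p of 0.05 between Sol and Gas, against 17% of all genes, and in LSD1-mKO 5 of 9 did, against 24.5% of all genes. Ncam1 was 2.75-fold higher in WT Sol than in WT Gas (log2 1.46 ± 0.24, adjusted p = 0.000542) and 3.52-fold higher in LSD1-mKO (1.82 ± 0.185, adjusted p = 2.8e-06), and every Sol library lay above every Gas library of its genotype. It was called in every alternative, also with each library left out in turn. Colq was 2.18-fold higher in WT Sol (1.12 ± 0.336, adjusted p = 0.0304) and 2.01-fold higher in LSD1-mKO Sol (1.01 ± 0.255, adjusted p = 0.0084). The WT call of Colq was lost without WT Gas 3 (0.84, adjusted p = 0.115), without WT Sol 1 (1.05, 0.114), without WT Sol 2 (1.07, 0.0582) and without WT Sol 3 (1.23, 0.0564), and it was also lost with the ribosomal level in the fit (0.86, adjusted p = 0.173) and without the 3 libraries of high ribosomal protein level (0.8, 0.148). It held in the other alternatives, and the call in LSD1-mKO held in all. The ribosomal level itself differed between muscles, with a mean log2 CPM of 6.78 to 8.31 in Gas and 6.13 to 6.98 in Sol. A Sol against Gas fit with this covariate can therefore take up part of the muscle difference.

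In LSD1-mKO, Dok7 was 2.13-fold higher in Sol (1.09 ± 0.325, adjusted p = 0.0212) and Lrp4 1.66-fold higher (0.73 ± 0.241, adjusted p = 0.0349), while Rapsn was lower, at 0.669 of its Gas level (-0.58 ± 0.184, adjusted p = 0.0289). In WT the same 3 genes had log2 values of 0.98, 0.89 and -0.38 with adjusted p of 0.118, 0.0633 and 0.294, and every WT Sol library lay above every WT Gas library for Dok7 and Lrp4. The calls in LSD1-mKO rest on few libraries: leaving out 1 library at a time kept that of Dok7 in 11 of 16 fits, that of Rapsn in 12 and that of Lrp4 in 8, and without LSD1-mKO Gas 5 only Colq and Ncam1 remained called. With the ribosomal level added to the fit none of these 3 was called, and Musk was (-1.08 in LSD1-mKO, adjusted p = 0.00287, and -1.13 in WT, adjusted p = 0.0345), although its value without the covariate was 0.29 in WT and -0.29 in LSD1-mKO; over all alternatives its adjusted p ranged from 0.00287 to 0.901 in LSD1-mKO and from 0.0345 to 0.946 in WT. Because the ribosomal level differed between muscles, the fit with it cannot tell its part in the Musk call or the 3 lost calls from that of muscle. Ache ran the other way from its tail subunit Colq, with log2 values of -0.6 ± 0.416 in WT (adjusted p = 0.34) and -0.8 ± 0.317 in LSD1-mKO (adjusted p = 0.0754). With replicate numbers of each genotype as blocks across muscles, the Ache value in LSD1-mKO was -0.7 with an adjusted p of 0.035 by the quasi-likelihood test. It was called in 5 of 7 alternatives, the block among them, and in 3 of 16 fits with 1 library left out, and its adjusted p over all of these ranged from 0.0297 to 0.256. Agrn and Etv5 lay between 0.22 and 0.32 in both genotypes, with intervals that included 0.

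**Figure D3:**
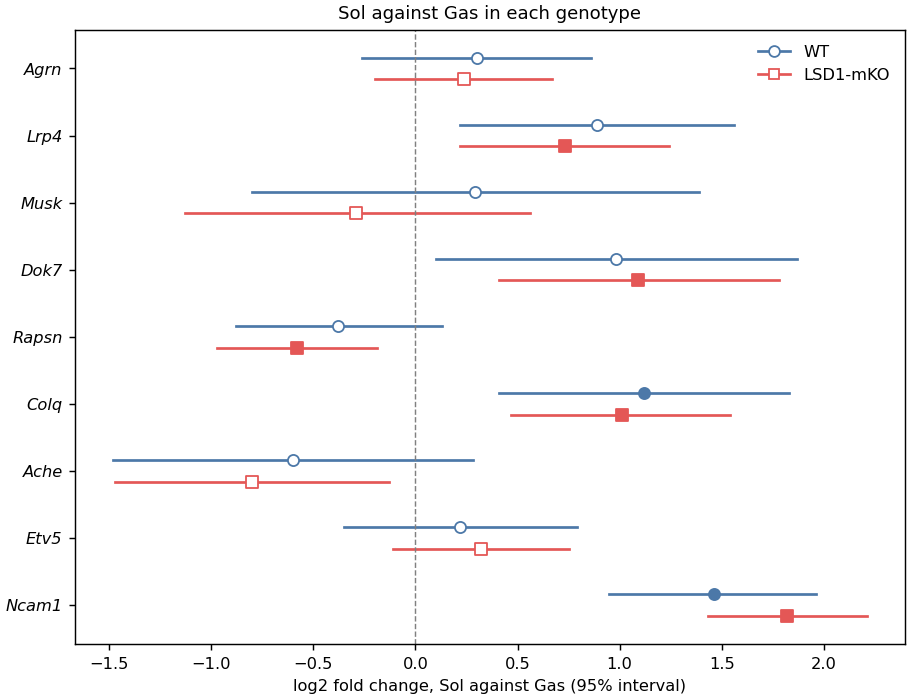
Log2 fold change of Sol against Gas with its 95% interval in WT (blue circles) and LSD1-mKO (red squares); filled symbols have an adjusted p under 0.05. Ncam1 and Colq are filled in both genotypes, Dok7, Lrp4 and Rapsn in LSD1-mKO, and Rapsn and Ache lie below 0.

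Some libraries stood high or low for many of the 9 genes at once. In LSD1-mKO Gas, replicate 1 held the highest level of 5 of the 9 genes, among them Lrp4 and Ache, and in LSD1-mKO Sol replicate 1 likewise held the highest level of 5, among them Lrp4, Ache and Colq. WT Gas 3 held the lowest WT Gas level of 7 genes and lay at a median of -0.88 log2 units from the median of the 8 Gas libraries, with -2.13 for Musk. LSD1-mKO Gas 2 lay above the Gas median for all 9 genes. The summed level of 9 Schwann cell markers, none of them at 0, was highest in the same 2 LSD1-mKO Gas libraries, at 713 CPM in replicate 1 and 505 CPM in replicate 2, against 166 to 304 CPM in the other 3 and 179 to 334 CPM in WT Gas; in Sol it was 109 to 252 CPM in WT and 152 to 231 CPM in LSD1-mKO. The part of Schwann cell RNA in the Lrp4, Ache and Etv5 values of these libraries was not tested. LSD1-mKO Sol 1 also held the highest sums in Sol of 6 neutrophil and macrophage markers (58.1 CPM, against 24.6 to 31.6 CPM in WT Sol and 20.3 to 48 CPM in LSD1-mKO Sol 2 to 5) and of 5 fibroblast markers (1600 CPM, against 768 to 1140 and 494 to 1390 CPM). Of the single markers, the macrophage gene Cd68 was 3.86-fold higher in LSD1-mKO Sol (adjusted p = 0.0699 by the quasi-likelihood test, called by DESeq2 and the exact test), while Adgre1 had 1.69-fold (adjusted p = 0.254), Csf1r 1.08-fold (0.889) and the collagen gene Col3a1 2.89-fold (0.174). Dcn, another of the 5 fibroblast markers, went the other way, from a mean of 592 CPM in WT Sol to 394 CPM in LSD1-mKO Sol. The fitted difference in Sol was above 0 for 4 of the 5 fibroblast markers. Among the 6 neutrophil and macrophage markers it was above 0 for 3 of the 5 tested. S100a8 had means of 1.56 CPM in WT Sol and 1.33 CPM in LSD1-mKO Sol, and S100a9 of 2.12 and 1.62 CPM. Ngp had means of 0.0412 and 0.0317 CPM. The part of RNA from these cells in the Sol values was not tested.

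**Figure D4:**
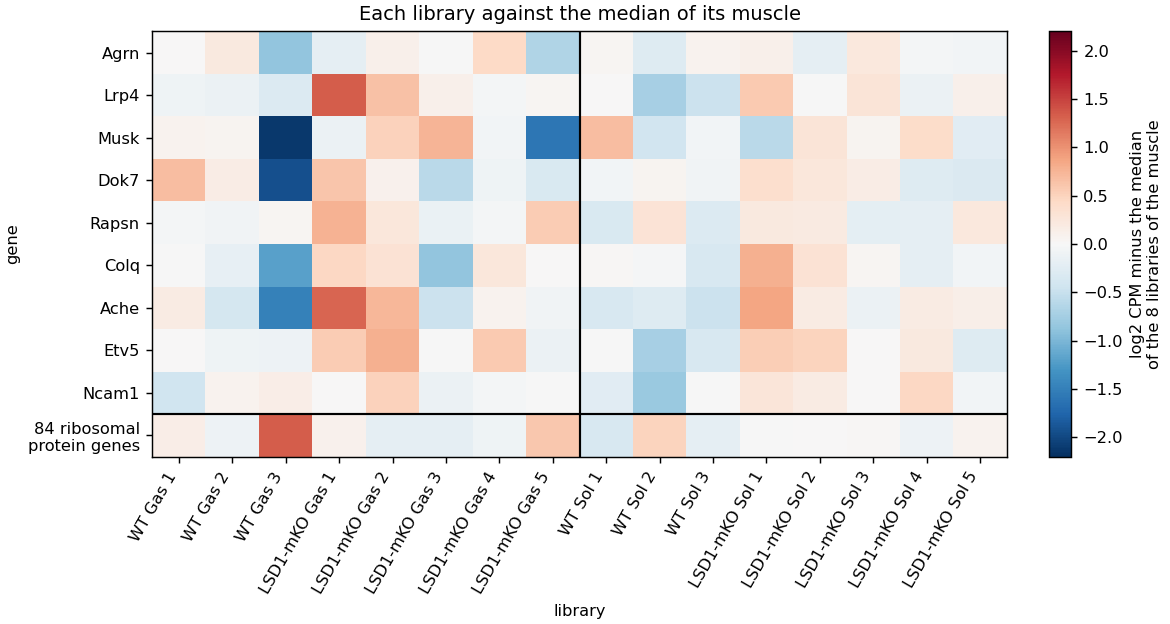
Log2 CPM of each gene minus the median of the 8 libraries of its muscle (rows are genes, columns libraries; red above, blue below), with the mean of 84 ribosomal protein genes in the lowest row. WT Gas 3 is blue for most genes and red for ribosomal protein genes (1.34 above the Gas median), LSD1-mKO Gas 5 is blue for Musk (-1.59) and Agrn (-0.66), and LSD1-mKO Gas 1 is red for Lrp4 (1.34) and Ache.

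After the mean of each muscle was subtracted, the Pearson r of the 36 pairs of the 9 genes ran from -0.41 (Rapsn and Agrn) to 0.88, with a median of 0.41 and 4 pairs below 0. The closest pair among the 9 genes was Ache and Colq, the enzyme and its anchor (r = 0.88 over 16 libraries, which share their depth and their ribosomal level), and Musk ran closest to Agrn (0.74). Across 12843 genes tested in both muscles, the pattern most like Musk was that of Cdk13 (r = 0.949), most like Dok7 that of Elmo2 (0.923) and most like Agrn that of Tjp1 (0.933). Of these, the likeness of Dok7 rested most on WT Gas 3, without which it was 0.78, while that of Musk was 0.912 and that of Agrn 0.896. Rapsn ran closest to Tomm20 (0.936), Lrp4 to Tmem229b (0.93), Colq to Mmp15 (0.913), Ache to Parvb (0.947) and Etv5 to Slc38a1 (0.918). Ncam1 ran closest to Myh3, embryonic myosin (0.869, and 0.867 without WT Gas 3).

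Further genes of the junction were read as lists. Of 21 genes that act downstream of MuSK, none passed the test between genotypes in Gas or Sol by edgeR's quasi-likelihood test, while at an unadjusted p under 0.05 it had 1 in Gas (against 9.06% of all genes) and 4 in the Sol fit (against 15.5% of all genes). DESeq2 and the exact test each called 1 in Gas and 0 in Sol. The gene they called in Gas was Pak1, a kinase that acts on the actin cytoskeleton, with -1 ± 0.229 in Gas (adjusted p = 0.275 by the quasi-likelihood test) and -0.74 ± 0.225 in Sol (adjusted p = 0.144). Between muscles, Pak1 was lower in Sol than in Gas, with a log2 fold change of -2.54 in WT (adjusted p = 9.36e-06) and -2.26 in LSD1-mKO (adjusted p = 1.02e-06), and Ptpn11, the phosphatase Shp2, was higher by 1.18 and 0.97. The median log2 difference of this list between genotypes was 0.07 in Gas and 0.02 in Sol.

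Of 12 synaptic basal lamina genes 11 were tested, and none passed between genotypes by any of the 3 tools. At an unadjusted p under 0.05 by the quasi-likelihood test there was 1 in Gas, against 9.06% of all genes, and 3 in Sol (Lama5, Nid1 and Hspg2), against 15.5%. Of 10 genes of the dystrophin-glycoprotein scaffold, 0 passed in Gas by any of the 3 tools, with 1 at an unadjusted p under 0.05 by the quasi-likelihood test. In Sol that test called 1, Itga7, the laminin-binding integrin of the fiber, which rose by 1.05 ± 0.16 (adjusted p = 0.0155). DESeq2 and the exact test called 2 in Sol, Itga7 and the syntrophin Sntb1, which had 1.71 ± 0.382 (adjusted p = 0.0638 by the quasi-likelihood test). Of 9 neuregulin and ETS genes 7 were tested, and Etv4, an ETS factor related to Etv5, rose in Sol (1.04 ± 0.191, adjusted p = 0.0323 by the quasi-likelihood test), where the other tools called it too. In Gas Etv4 had 1.37 ± 0.299 with an adjusted p of 0.248, and was called there by DESeq2 and the exact test. Of 11 genes that respond to denervation, the quasi-likelihood test called none in Gas and 1 in Sol, Dach2, a repressor of myogenin, which fell (-3.74 ± 0.739, adjusted p = 0.0412). DESeq2 and the exact test called Dach2 and Myh8, the perinatal myosin, in Gas, and these 2 and Myh3 in Sol. In Gas Dach2 had -3.91 ± 0.548 (adjusted p = 0.0551 by the quasi-likelihood test) and Myh8 2.2 ± 0.558 (0.33). The myosins lay the other way from Dach2 in Sol, with 0.92 ± 0.213 for Myh8 (0.0681) and 1.47 ± 0.343 for Myh3 (0.0712). The median log2 difference over the 11 genes was 0.81 in Gas and 0.37 in Sol.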

How the data were processed

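Poly(A) RNA was sequenced as 75-base single-end reads. Per the file headers, the authors counted reads over exons with featureCounts 1.5.2 on an mm10 gene annotation, with no strand option; the study aligned reads with STAR. The deposited values used here are raw counts in 16 columns, 1 table per muscle. The deposited tables of the authors' own comparisons (log2 fold change, log2 CPM, p-value and false discovery rate) were not used.

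Genotypes were compared within each muscle with edgeR 4.0.16 (R 4.3.3): filterByExpr, TMM, the two-sided quasi-likelihood test and Benjamini-Hochberg adjustment over all genes tested, 13040 in Gas and 13342 in Sol, with a threshold of 0.05. The interaction and Sol against Gas were tested in 1 fit of all 16 libraries over 13749 genes. The SE is the log2 fold change over the square root of F, and intervals are 95% intervals. Alternatives were DESeq2 1.42.0, edgeR's exact test, RLE scaling, no filter, a ribosomal covariate, replicate blocks and left-out libraries. The test was tried on simulated counts. Annotated positions and transcript lengths are of GENCODE M21 (GRCm38).

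The 9 genes and the gene lists were chosen with earlier results of these data known. Text names the 9 genes, Kdm1a, the receptor subunits, the called genes of each list and, for each of the 9 genes, the gene with the most similar pattern; Lama5, Nid1, Hspg2 and the cell type markers given singly were named after their values were seen. Nothing states that Gas and Sol libraries of the same number come from 1 mouse. Deviations from the group means correlated by 0.26 to 0.4 in all 5 same-numbered LSD1-mKO pairs across muscles, above the 0.1 required. In WT they correlated by -0.57 to 0.14. Same-numbered WT and LSD1-mKO libraries of Gas, which are from different mice, reached 0.33, so passing 0.1 does not show a pairing. A pairing across muscles was read as a hint in LSD1-mKO only. The main tests do not pair libraries. The replicate block is an alternative. In the interaction and Sol against Gas fits it pairs same-numbered libraries of each genotype across muscles, WT included. In the genotype fits within a muscle it pairs same-numbered WT and LSD1-mKO libraries, which are from different mice. The labels do not say whether the libraries of a group come from separate mice; p-values measure only the spread between these libraries.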

Additional observations from a re-analysis of the deposited data

Results flagged for a closer look

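In 18 checks of the 9 genes in the 2 LSD1-mKO groups, 2 had a library whose gap to the nearest other library took up most of the range of its group of 5; chance alone marks about 1 in 20. Ache in LSD1-mKO Sol 1 stood at 28 CPM, with the nearest library at 17.3 and the farthest at 14 CPM, a gap of 0.764 of the range. Ncam1 in LSD1-mKO Gas 2 stood at 10.4 CPM, with the nearest at 7.34 and the farthest at 6.68 CPM, a gap of 0.82 of the range.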

How the results depend on the processing

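None of the 9 genes was called between genotypes or for the interaction in any alternative run or with any library left out. By the quasi-likelihood test, adjusted p fell as low as 0.0609 for Lrp4 with the replicate block. It fell as low as 0.0767 for Ncam1 with the ribosomal covariate, both in Sol. The number of all genes called moved much more. In Gas it was 4 in the fit reported, 10 without the filter, 132 with DESeq2, 104 with the exact test, 62 with all 16 libraries in 1 fit, 7 without WT Gas 3 (the library over 1 above the ribosomal median), and 1 to 7 with each library left out. In Sol it was 129 in the fit reported, 336 without the filter, 605 with DESeq2, 560 with the exact test, 291 with the ribosomal covariate, 23 without the 3 libraries of high ribosomal protein level (an alternative chosen after seeing the data), and 11 to 228 with each library left out. For the interaction it was 21 with DESeq2 and 0 to 1 with each library left out. The cause of these shifts was not tested.

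Replicate numbers did not pair WT with LSD1-mKO libraries within a muscle: deviations of same-numbered libraries correlated by -0.18 to 0.33 in Gas and by -0.01 to 0.15 in Sol. In the genotype fits the replicate block nevertheless pairs these libraries, which are from different mice. It called 3 genes in Gas and 412 in Sol, 0 of the 9 genes in each. For the interaction and Sol against Gas it pairs same-numbered libraries of each genotype across muscles. It called 1 gene for the interaction, with 0 of the 9. Between muscles 3 of the 9 were called in WT (Lrp4 added) and 6 in LSD1-mKO (Ache added). The WT blocks rest on the number alone, as same-numbered WT libraries correlated by -0.57 to 0.14 across muscles. Each LSD1-mKO Gas library correlated best with the Sol library of its own number. Dok7 turned to 0.35 in Gas and to -0.13 for the interaction under the block, where Musk and Ache had 0.98 and 1.09 in Gas. No label states a pairing, so the match across muscles in LSD1-mKO is a hint from the data.

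Sol against Gas, 1 of the 9 genes was called in WT without WT Gas 3, and 1 without the 3 libraries of high ribosomal protein level. With each library left out, 1 to 3 of the 9 were called in WT and 2 to 6 in LSD1-mKO, and 1132 to 2839 of all genes in WT.

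Log2 values that changed sign were, with 1 exception, never called. With the ribosomal covariate Musk turned to -0.21 and Agrn to -0.17 in Gas. For the interaction they turned to 0.05 and 0.21. For Sol against Gas in WT, Musk turned to -1.13, the exception (adjusted p = 0.0345, range over its alternatives 0.0345 to 0.946), Agrn to -0.34 and Etv5 to -0.13, and in LSD1-mKO Agrn turned to -0.13. The ribosomal level differed between muscles, so the Sol against Gas fits with this covariate cannot separate it from muscle. Without WT Gas 3, Agrn in Gas turned to -0.12, Musk for Sol against Gas in WT to -0.16, and the interaction to 0.19 for Agrn, 0.14 for Colq and 0.13 for Ache. Without the 3 libraries of high ribosomal protein level, Agrn in Sol turned to -0.05, and the interaction to 0.06 for Rapsn, 0.17 for Colq, 0.07 for Ache and -0.14 for Etv5. With each library left out, the value ranged in Gas from -0.44 to 0.51 for Dok7, from -0.12 to 0.37 for Agrn and from -0.02 to 0.25 for Ncam1. In Sol it ranged from -0.34 to 0.24 for Musk and from -0.05 to 0.13 for Agrn, and for Sol against Gas in WT from -0.16 to 0.58 for Musk. For the interaction it ranged from -0.41 to 0.55 for Dok7, -0.32 to 0.16 for Lrp4, -0.34 to 0.03 for Rapsn, -0.29 to 0.19 for Agrn, -0.34 to 0.14 for Colq, -0.62 to 0.13 for Ache and -0.07 to 0.27 for Etv5. With 3 WT libraries per muscle, an adjusted p past 0.05 does not show that the genotypes are alike.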
